A study of Homo sapiens with 12 samples.

Results

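The let-7 family, counted in exosomes released by MDA-MB-231 cells, comprised 10 of the 153 mature miRNAs listed in either deposited table. Members were all entries named let-7 or miR-98. All 10 were among the 137 miRNAs listed for parental cells. Among the 114 listed for CSC-like cells there were 8, without let-7c-5p and let-7d-3p. Exosomes are small vesicles that cells release, and MDA-MB-231 is an established human breast adenocarcinoma line. The 12 libraries fell into 4 groups of 3: parental cells, or cells of the same line sorted as cancer stem cell-like (CSC-like), each cultured for 48 h without drug or with 56 µM cisplatin, a platinum compound that crosslinks DNA. All cells grew in exosome-depleted serum, and the marker used to sort the CSC-like cells is not given in the sources used here.

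let-7 miRNAs pair through their seed, the bases near the 5′ end, with messenger RNAs that include those of RAS proteins, HMGA2 and MYC, and lower their output. LIN28 proteins, which are high in many stem cells, block the processing of let-7 precursors, so that mature let-7 usually accumulates as cells differentiate. Low let-7 in breast tumour-initiating cells is one reason the family is followed in CSC-like populations.

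The mature sequences are shown because the members differ by so few bases that the counts of 1 member depend on how reads of another were assigned. They come from RefSeq (GRCh38.p14), run 5′ to 3′, and carry the seed (bases 2 to 8) in capitals.
hsa-let-7i-5p: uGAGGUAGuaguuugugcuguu
hsa-let-7g-5p: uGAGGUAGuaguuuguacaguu
hsa-let-7f-5p: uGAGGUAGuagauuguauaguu
hsa-let-7a-5p: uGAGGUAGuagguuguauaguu
hsa-let-7b-5p: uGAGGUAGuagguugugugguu
hsa-let-7c-5p: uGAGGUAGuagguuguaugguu
hsa-let-7e-5p: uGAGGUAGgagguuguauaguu
hsa-let-7d-5p: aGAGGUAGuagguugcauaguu
hsa-miR-98-5p: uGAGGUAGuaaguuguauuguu
hsa-let-7d-3p: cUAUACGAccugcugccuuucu
All 10 matched RefSeq by name, and all 10 deposited sequences equalled the RefSeq ones with T for U.

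The 9 members from 5′ arms shared the seed GAGGUAG, and let-7d-3p, the opposite arm of the let-7d hairpin, had another seed. RefSeq holds 11 mature human miRNAs with this seed, and the 9 listed here were all members, since miR-4458 and miR-4500 had no entry. Counted from 1 at the 5′ end, let-7f-5p differs from let-7a-5p by G12A alone, let-7c-5p by A19G and let-7e-5p by U9G. let-7g-5p differs from let-7a-5p by G12U and U18C, and let-7i-5p by the same bases plus A17G and A19U. let-7b-5p and let-7c-5p are 1 base apart as well. The number of mismatches allowed when reads were annotated is not given in the sources used here, so the split between members that are 1 base apart is uncertain, and most so for the rare ones beside an abundant neighbour. The closest listed miRNA outside the family differed from each member of the 5′ arms by at least 10 bases.

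In GRCh38 let-7i-5p is encoded once, on the plus strand of chromosome 12 (62603691 to 62603712), in an intron of the lincRNA AC048341.1 by GENCODE 29. let-7g-5p is encoded on chromosome 3 (52268336 to 52268357, minus strand), in an intron of WDR82. let-7a-5p has 3 loci, on chromosome 9 (94175962 to 94175983, plus strand), on chromosome 11 (122146568 to 122146589, minus strand, in an intron of MIR100HG) and on chromosome 22 (46112752 to 46112773, plus strand, in an exon of MIRLET7BHG). let-7f-5p has 2, one on chromosome 9 (94176353 to 94176374) beside the first let-7a locus and one on chromosome X (53557246 to 53557267, in an intron of HUWE1, near miR-98). let-7b-5p (chromosome 22, 46113691 to 46113712) shares the host MIRLET7BHG with the third let-7a locus. Counts from several loci of 1 mature sequence cannot be told apart.

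Parental libraries held 2648 to 6622 listed counts and CSC-like libraries 429 to 2522. All shares below are percentages of a library's listed counts unless stated otherwise. The upper limit behind a count of 0, 3 counts of the total, was 0.0453% in the deepest library and 0.699% in the shallowest. The 5 MDA-MB-231 miRNAs chosen as markers (miR-21-5p, miR-100-5p, miR-221-3p, miR-222-3p and miR-146a-5p) made up 50.6% to 60.5% of every library. Of the 5 epithelial miR-200 family markers 2 were listed, at most 0.373% in any library, and of the 6 blood and serum markers at most 3, at most 0.466%. The liver marker miR-122-5p was listed for parental cells only, at most 0.15%. In the treated CSC-like group, replicates 2 and 3 differed by less than the sampling noise of their counts allows to detect, with a chi-square of 1.18 per degree of freedom over 37 miRNAs against 1.48 to 51.2 in the other pairs of replicates. They were counted as 1 sample, which leaves n = 2 in that group. Statements below on whether groups overlapped still use each library, so 2 of the treated CSC-like values there are not separate samples. The pair at 1.48 was replicates 2 and 3 of treated parental cells, against 16.1 and 16.4 for the other pairs there. It differed at the threshold of 0.05 (chi-square test, p = 0.0123), so these libraries stayed separate samples. SDs given with n = 3 for treated parental cells therefore rest on 2 libraries that are nearly alike and 1 other. No label says that the replicates were separate cultures, so the p-values below measure the spread of these libraries alone, and that spread may be technical. The parental and CSC-like libraries were deposited in separate tables, and a difference between the tables cannot be told apart from one between the populations. In bulk exosome RNA, fewer exosomes rich in a miRNA and less of it per exosome cannot be told apart either.

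Untreated parental libraries differed widely in the family. Replicate 1 held 30 let-7 counts, or 0.851% of its counts (exact Clopper-Pearson 95% interval 0.575 to 1.21), the lowest share of the 12 libraries. miR-100-5p made up 51.1% of its counts, beside 21.4% in replicate 2 and 44.5% in replicate 3. Untreated parental replicate 2 held 744 let-7 counts, or 28.1%, the highest share of the 12 libraries, and replicate 3 held 586, or 14.6%. Cisplatin-treated parental libraries stood at 10.2%, 17.1% and 19.5%. All 3 treated values lay between the extremes of the untreated group.

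In CSC-like exosomes the family made up 18.02%, 11.05% and 16.02% of counts without cisplatin and 8.86%, 13.2% and 12.6% with it. The first treated library rests on 38 let-7 counts (interval 6.34% to 11.96%). The treated range overlapped the untreated one. The mean of the treated group was 4.16 percentage points lower, beside an SD of 3.59 in the untreated group (n = 3) and 2.85 in the treated group (n = 2). It was -2.14 without treated replicate 1, -2.66 without untreated replicate 1 and -6.15 without untreated replicate 2. In parental exosomes the corresponding difference was 1.10 percentage points upwards, with SDs of 13.6 and 4.84 (n = 3 each), and it was -5.74 without untreated replicate 1 and 7.88 without untreated replicate 2. In these sums no direction was stable for parental cells, and for CSC-like cells the difference was close to the replicate SD. No molecular identifiers are given, so the intervals describe counting error and nothing else.

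**Figure D1:**
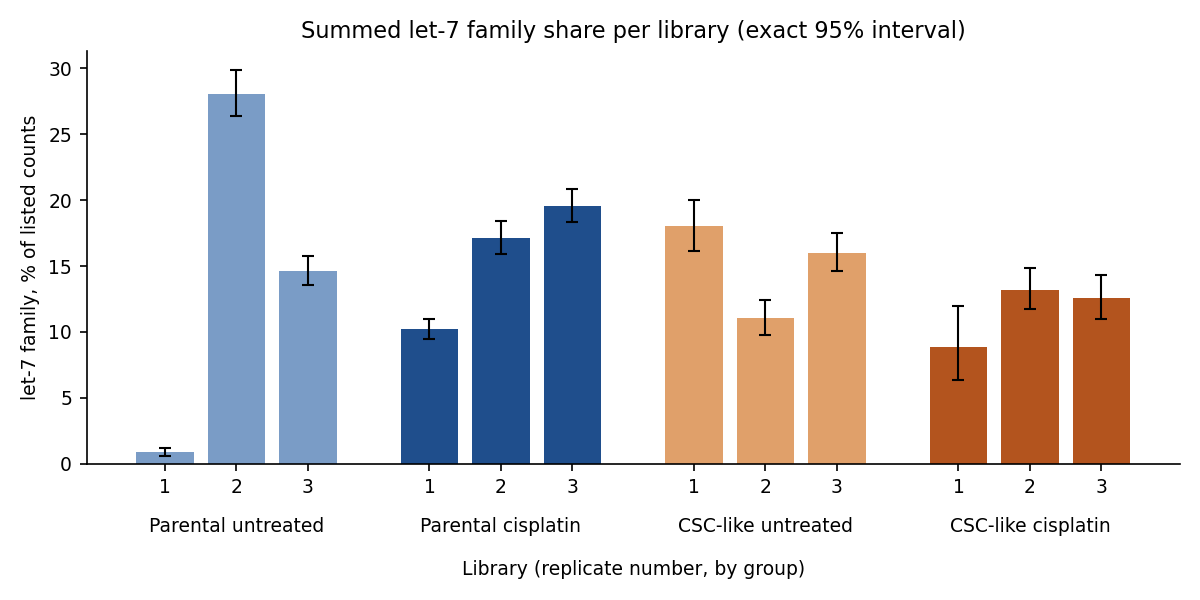
Summed let-7 family share of listed counts in percent (y axis) in each of the 12 libraries (x axis, replicate number within its group). Bars start at 0 and lines are exact 95% intervals for counting error; untreated parental replicates 1 and 2, at 0.851% and 28.1%, are the lowest and the highest.

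A few members carried the family. let-7i-5p, let-7f-5p, let-7g-5p, let-7a-5p and let-7b-5p held 4743 of the 4814 let-7 counts (98.5%), and the other 5 members 71. let-7i-5p had the most counts in 10 of the 12 libraries and let-7f-5p in the other 2, untreated parental replicate 3 and untreated CSC-like replicate 2. Over all libraries let-7i-5p supplied 46.8% of family counts, let-7f-5p 26.5%, let-7g-5p 12.8%, let-7a-5p 8.58% and let-7b-5p 3.86%. In every group let-7i-5p stood highest and let-7b-5p lowest of the 5 by mean share of the let-7 sum. The order between them varied. In untreated parental exosomes let-7f-5p (16.7% ± 11.8 of the let-7 sum), let-7a-5p (14.8% ± 12.5) and let-7g-5p (12.5% ± 5.52; SD, n = 3) differed by less than their spread. In cisplatin-treated parental exosomes let-7f-5p made up 30.8% ± 4.97 and let-7a-5p 3.79% ± 1.75 of it (SD, n = 3).

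**Figure D2:**
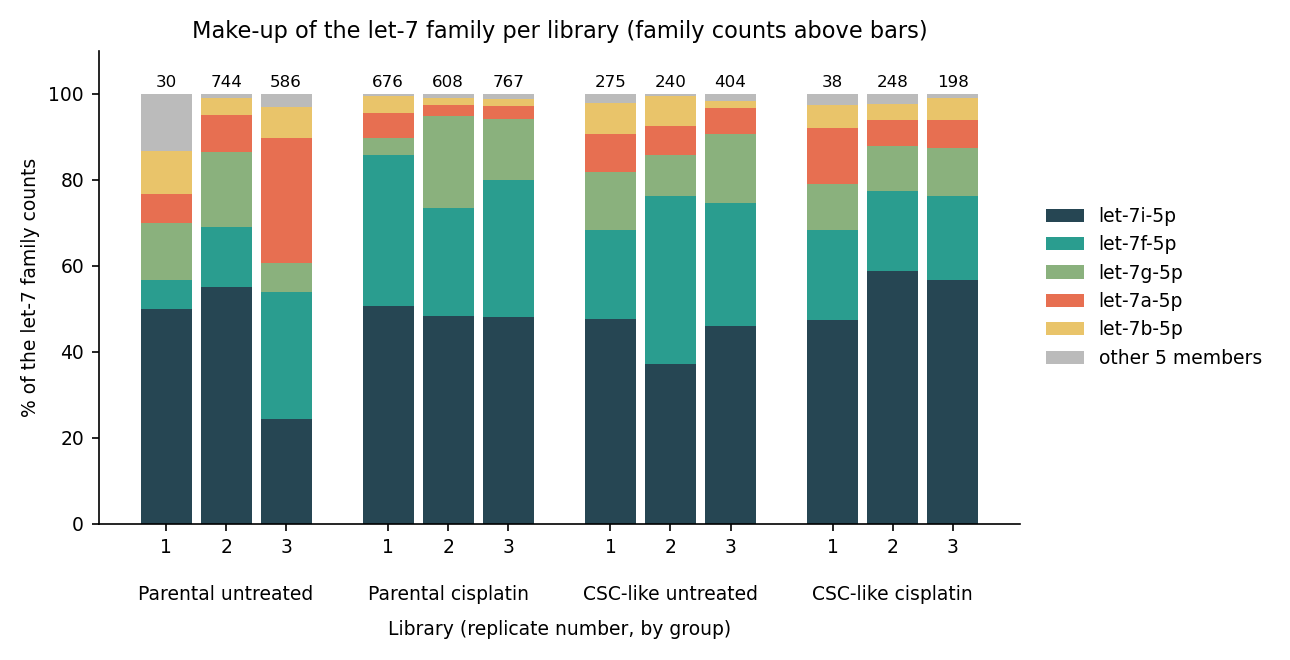
Make-up of the let-7 family in each library, as percent of its let-7 counts (y axis), with the number of let-7 counts above each bar. let-7i-5p is the largest part of 10 libraries, and let-7a-5p ranges from 2.47% of the family in cisplatin-treated parental replicate 2 to 29.2% in untreated parental replicate 3.

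The members from the chromosome 12 and chromosome 3 loci, let-7i-5p and let-7g-5p, are 2 bases apart and were often high or low in the same libraries. let-7i-5p was counted 15, 410 and 142 times in untreated and 342, 293 and 369 times in cisplatin-treated parental libraries. Those counts are shares of 0.425%, 15.5% and 3.55%, and of 5.16%, 8.25% and 9.40%, so the treated values fell inside the untreated range. In CSC-like libraries it was counted 131, 89 and 186 times untreated (8.58%, 4.10% and 7.38%) and 18, 146 and 112 times treated (4.20%, 7.78% and 7.11%), and the groups overlapped.

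let-7g-5p was counted 4, 131 and 39 times in untreated parental libraries and 28, 130 and 108 times in treated ones. Its share was 0.113%, 4.95% and 0.974% against 0.423%, 3.66% and 2.75%, with replicate 2 highest in both groups. In CSC-like exosomes it stood at 2.42%, 1.06% and 2.58% untreated and at 0.932%, 1.39% and 1.40% treated. The treated CSC-like libraries sat in the lower part of the untreated range or under it. Over the 12 libraries the shares of let-7i-5p and let-7g-5p had a Spearman rho of 0.87 as a description (0.89 over the parental and 0.66 over the CSC-like libraries), and they share each library's total. The ratio of let-7i-5p to let-7g-5p counts still ran from 2.25 to 12.2 within the treated parental libraries.

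let-7f-5p, the member encoded on chromosomes 9 and X, showed the least overlap in CSC-like exosomes. Its counts were 57, 94 and 115 untreated and 8, 46 and 39 treated, or 3.74%, 4.33% and 4.56% against 1.86%, 2.45% and 2.48%. Each treated CSC-like library lay under every untreated one, though treated replicates 2 and 3 were counted as 1 sample above. By the same libraries, 13.8% of the tested miRNAs likewise had groups that did not overlap. In parental exosomes it stood at 0.0567%, 3.89% and 4.34% untreated and at 3.58%, 4.34% and 6.24% treated, where the groups overlapped. The values of untreated CSC-like libraries (4.21% ± 0.425, SD, n = 3) were close together, with a chi-square per degree of freedom of 0.766 over the replicates, against a median of 5.98 for the 17 other miRNAs with at least 30 counts in that group. In treated CSC-like libraries it was 0.285 (median 3.55). Parental libraries had higher values, at 71.5 untreated (median 7.22) and 19.6 treated (median 5.35). Untreated parental values of the abundant members ran from 15.3 (let-7b-5p) to 332 (let-7i-5p). This measure grows with counts at equal relative spread, so it does not compare groups or miRNAs at equal depth. let-7f-5p had 636 counts in treated parental libraries (4.72% ± 1.37 of listed counts, SD, n = 3). It had 93 in treated CSC-like libraries (2.16% ± 0.423, SD, n = 2).

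let-7a-5p, the member with the most loci, was counted 2, 64 and 171 times in untreated parental libraries and 39, 15 and 24 times in treated ones, or 0.0567%, 2.42% and 4.27% against 0.589%, 0.422% and 0.612%. The treated libraries were close together and lay under untreated replicates 2 and 3 and above replicate 1. In CSC-like exosomes it stood at 1.57%, 0.737% and 0.991% untreated and at 1.17%, 0.799% and 0.825% treated, with full overlap.

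let-7b-5p, which lies beside a let-7a locus on chromosome 22, was counted 3, 29 and 42 times in untreated and 26, 10 and 12 times in treated parental libraries (0.0851%, 1.10% and 1.05% against 0.393%, 0.282% and 0.306%). The pattern over parental libraries was that of let-7a-5p, and the Spearman rho between both members was 0.89 over the 6 parental libraries and -0.03 over the 6 CSC-like ones. CSC-like counts were 20, 17 and 6 untreated and 2, 9 and 10 treated, or 1.31%, 0.783% and 0.238% against 0.466%, 0.479% and 0.635%. These groups overlapped.

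**Figure D3:**
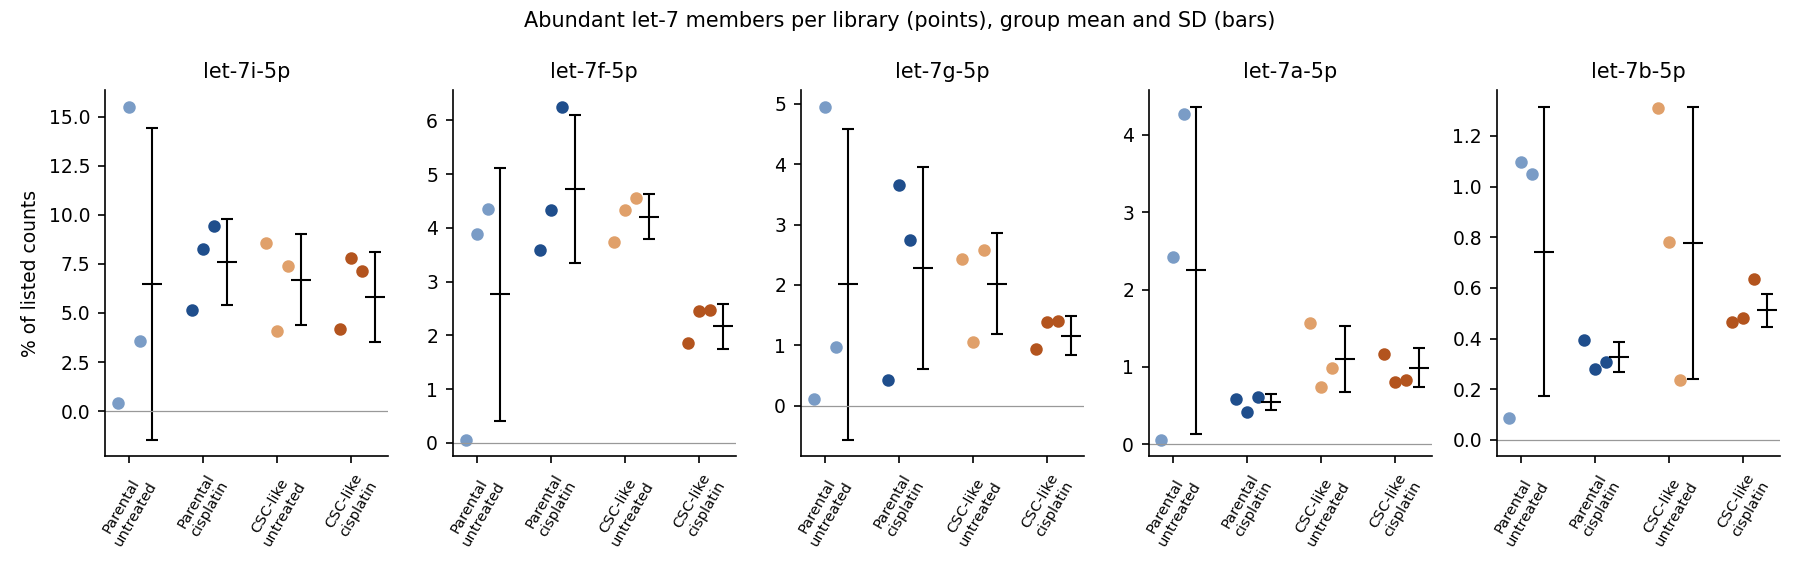
Share of listed counts in percent (y axes, scaled per panel) of the 5 abundant let-7 members in every library, by group (x axes). Points are libraries and black bars are group means ± SD; let-7f-5p in treated CSC-like libraries, at 1.86% to 2.48%, lies under all untreated CSC-like libraries.

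The remaining 5 members, never above 9 counts in a library, could not be compared. let-7e-5p, from the chromosome 19 cluster with miR-99b and miR-125a, had 0, 1 and 9 counts in untreated parental libraries and 1 in each treated one. In CSC-like libraries it had 1, 0 and 2 counts untreated and 0, 1 and 1 treated. let-7d-5p had between 0 and 4 counts over the 12 libraries, 21 in all, and let-7d-3p 8 over the 6 parental libraries. miR-98-5p, the neighbour of a let-7f locus, had 13 counts in all and 0 in 6 libraries. let-7c-5p had 7 counts untreated and 4 treated in parental exosomes. No listed miRNA was at 0 throughout a group. A member without an entry for CSC-like cells may therefore still have been counted in 1 of their groups.

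Ratios within the family do not depend on the library total, and the neighbours let-7a-5p and let-7f-5p were singled out among them after their values were seen. let-7f-5p made up 50% (2 of 4 counts), 61.7% and 50.4% of the let-7a-5p and let-7f-5p counts in untreated parental libraries and 85.9%, 91.1% and 91.1% in treated ones. The exact intervals of untreated replicates 2 and 3 (53.8 to 69.1% and 45.03 to 55.8%) did not reach those of the treated libraries, the lowest of which started at 81.2%. The interval of untreated replicate 1 (6.76 to 93.2%) reached all of them. The means were 54.04% ± 6.62 and 89.4% ± 3.02 (SD, n = 3 each), a difference of 35.3 percentage points that ranged from 33.3 to 39.1 on leaving out each library in turn.

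In CSC-like exosomes the same percentage was 70.4%, 85.5% and 82.1% untreated and 61.5%, 75.4% and 75% treated, and these groups overlapped. All untreated CSC-like libraries lay above the untreated parental ones, by 25.3 percentage points on average, and all treated CSC-like libraries lay under the treated parental ones, by 21.0. No p-value was computed for a pair chosen this way. With 3 samples against 3 an exact two-sided permutation test cannot go below 0.1, and with 3 against 2 not below 0.2.

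**Figure D4:**
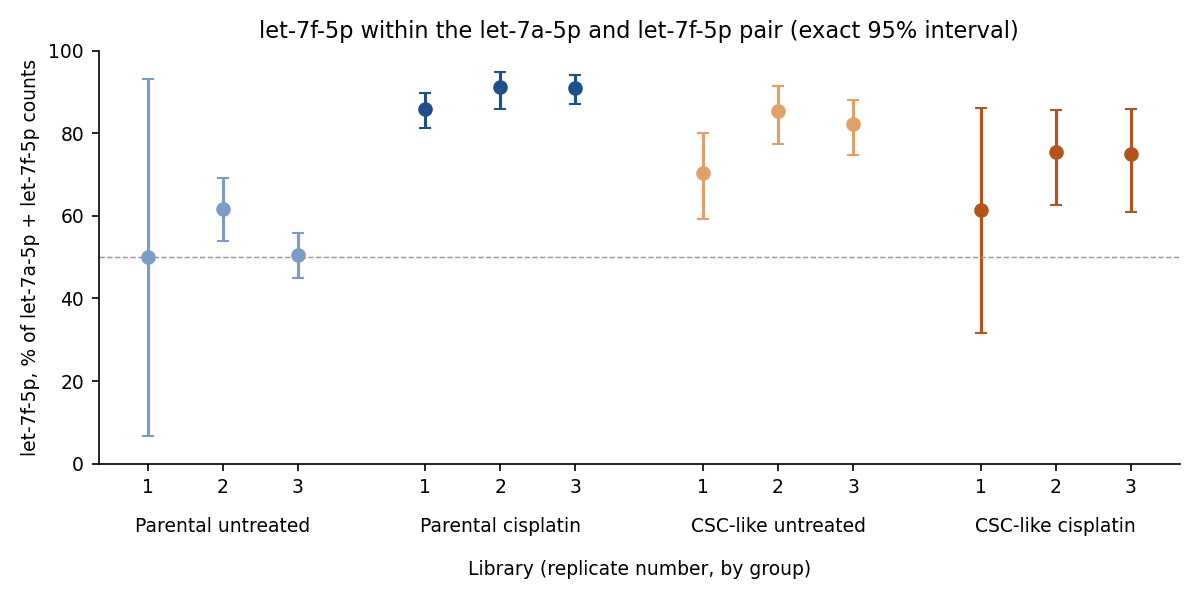
let-7f-5p counts as percent of let-7a-5p plus let-7f-5p counts (y axis) in each library (x axis, replicate number within its group), with exact 95% intervals for counting error. The dashed line marks 50%; the 3 treated parental libraries (85.9% to 91.1%) lie above all 3 untreated parental ones.

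All 10 pairs of the 5 abundant members were compared in this way. After cisplatin in parental cells 3 pairs did not overlap between groups, let-7f-5p over let-7a-5p, let-7f-5p over let-7b-5p and let-7i-5p over let-7a-5p, all with more of the first member in treated libraries. Of all 666 pairs of tested miRNAs 17.1% did not overlap in that comparison. let-7f-5p made up 40%, 78.03% and 80.6% of let-7f-5p plus let-7b-5p counts untreated and 90.1%, 93.9% and 95.3% treated. let-7i-5p made up 88.2%, 86.5% and 45.4% of let-7i-5p plus let-7a-5p counts untreated and 89.8%, 95.1% and 93.9% treated, a narrow separation. After cisplatin in CSC-like cells 1 pair did not overlap, let-7i-5p over let-7g-5p (78.0%, 79.5% and 74.1% against 81.8%, 84.9% and 83.6%), beside 14.3% of all pairs of tested miRNAs. Between untreated populations let-7f-5p over let-7a-5p was likewise the only such pair (14.3% of all pairs there too). Between treated populations 3 pairs did not overlap, beside 20.1% of all pairs. let-7f-5p over let-7a-5p and over let-7b-5p were lower and let-7i-5p over let-7f-5p higher in CSC-like libraries.

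The first comparison asked whether cisplatin changed exosomal let-7 in parental cells. None of the 5 tested members passed edgeR's quasi-likelihood test, none had an unadjusted p under 0.05, and 5.41% of the 37 tested miRNAs passed. The lowest fitted log2 fold changes were -2.29 for let-7a-5p (SE 1.13) and -1.46 for let-7b-5p (SE 0.71), each with an edgeR adjusted p of 0.244. Their unadjusted edgeR p-values, 0.0527 and 0.0502, were just over 0.05. These were 0.0136 and 0.0363 in 1 model of all 4 groups, and 0.247 and 0.289 with a replicate block. let-7f-5p stood at 0.53 (SE 1.23), let-7g-5p at -0.10 (SE 1.25) and let-7i-5p at -0.09 (SE 1.08), and the latter were 0.18 and 0.23 with library totals in place of TMM, which moved the median of all tested miRNAs from -0.27 to 0.01. The members' median was -0.10. Without untreated parental replicate 1 let-7a-5p passed as lower (-3.09, adjusted p = 0.0256, edgeR) and let-7f-5p turned to -0.31. Over all alternatives the adjusted p of let-7a-5p ranged from 0.0256 to 0.627. By share of listed counts none of the 5 members separated the groups, beside 16.2% of the tested miRNAs. By share of the let-7 sum let-7a-5p (2.47% to 5.77% against 6.67% to 29.2%) was lower in every treated library. So was let-7b-5p (1.56% to 3.85% against 3.90% to 10%), by a narrow margin, and the others overlapped. The lowest untreated let-7a-5p value rests on 2 counts, and this measure has no counterpart over all tested miRNAs.

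The second comparison put the question to CSC-like cells. Again 0 of 5 tested members passed edgeR, 0 had an unadjusted p under 0.05, and 3.45% of the 29 tested miRNAs passed. let-7f-5p had the lowest fitted value, -1.001 on the log2 scale (SE 0.79, adjusted p = 0.990), followed by let-7g-5p with -0.72 (SE 0.83) and let-7b-5p with -0.53 (SE 0.95). The members' median was -0.53 and that of all tested miRNAs -0.15. By libraries 1 of 5 members did not overlap, let-7f-5p, which was lower in each treated library, beside 13.8% of the tested miRNAs. In the authors' deposited table let-7f-5p had a fold of -1.80 with an unadjusted p of 0.00112, the fourth lowest of 114 miRNAs, and the lowest p of the other members in either deposited table was 0.165. The deposited p is unadjusted, from another test over 3 libraries a group, while edgeR was fitted on 2 treated samples with adjustment. Before adjustment the edgeR p of let-7f-5p was 0.207, and 0.166 with every library as its own sample. What sets the deposited p apart from these was not tested. The edgeR value of let-7f-5p was -0.36 without treated CSC-like replicate 1 and -0.61 with every library as its own sample, and its adjusted p ranged from 0.560 to 0.997 over the alternatives.

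The third comparison asked whether the response to cisplatin differed between CSC-like and parental cells. No member passed the edgeR interaction test and none had an unadjusted p under 0.05, beside 2.08% of 48 miRNAs that passed. The difference between log2 fold changes was 2.43 (SE 1.56, adjusted p = 0.647) for let-7a-5p, or 0.90 without untreated parental replicate 3, and 1.21 (SE 1.20, adjusted p = 0.870) for let-7b-5p. It was -1.26 (SE 1.56) for let-7f-5p, -0.94 (SE 1.61) for let-7g-5p and -0.33 (SE 1.35) for let-7i-5p. A difference in response was therefore not shown for any member.

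The last comparisons set CSC-like against parental exosomes, without and with cisplatin. They share their libraries with the comparisons above. Among untreated libraries 0 of 5 members passed edgeR or had an unadjusted p under 0.05, beside 3.33% of 30 tested miRNAs that passed. let-7a-5p was fitted at -1.39 (SE 1.20, adjusted p = 0.620), or -0.26 without untreated parental replicate 3, and the other 4 between -0.33 and 0.33. No member separated the untreated groups by library, beside 13.3% of the tested miRNAs. Among treated libraries 0 of 5 members passed or had an unadjusted p under 0.05, beside 2.38% of 42 tested miRNAs that passed. There let-7a-5p was fitted at 0.93 (SE 0.64) and let-7b-5p at 0.87 (SE 0.61, adjusted p = 0.742 for both), and let-7f-5p at -0.96 (SE 0.78, adjusted p = 0.824). Their shares of listed counts did not overlap, higher in CSC-like exosomes for let-7a-5p and let-7b-5p and lower for let-7f-5p, 3 of 5 members beside 21.4% of the tested miRNAs. By share of the let-7 sum let-7a-5p (6.05% to 13.2% against 2.47% to 5.77%) was again higher in CSC-like exosomes. There let-7f-5p (18.5% to 21.1% against 25.3% to 35.1%) was lower, and let-7b-5p overlapped. DESeq2 likewise called 0 members in each of the 5 comparisons, with 1 unadjusted p under 0.05 for cisplatin in parental cells and 0 in the others. In the order above it called 5.41%, 3.45%, 2.08%, 3.33% and 2.38% of all tested miRNAs.

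**Figure D5:**
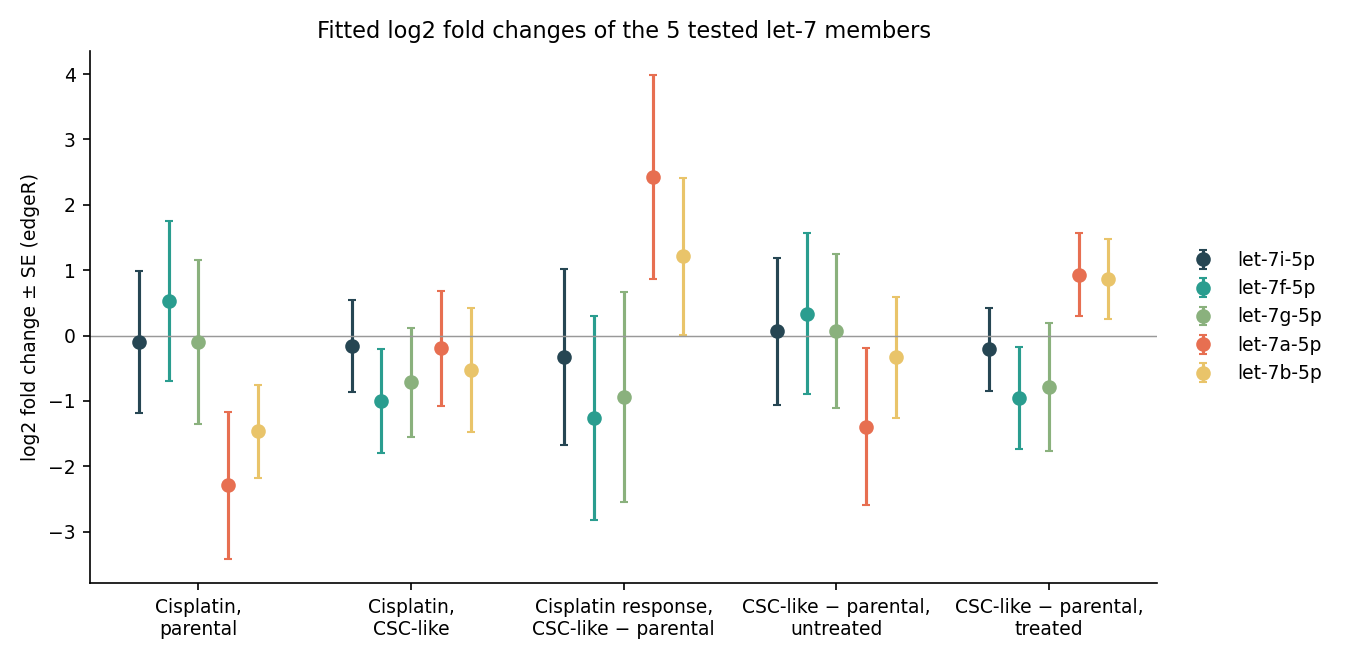
edgeR log2 fold changes ± SE (y axis) of the 5 tested let-7 members in the 5 comparisons (x axis). None passed the adjusted threshold; let-7a-5p has the lowest value after cisplatin in parental cells, -2.29.

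Some let-7 loci lie in clusters with miR-99, miR-100 and miR-125 members. let-7a on chromosome 11 lies with miR-100 and miR-125b, let-7c on chromosome 21 with miR-99a and miR-125b, and let-7e on chromosome 19 with miR-99b and miR-125a. Of these partners 7 mature miRNAs were listed, and edgeR tested miR-100-5p in all 5 comparisons and miR-99b-5p in 3. None passed in either direction. miR-100-5p made up 51.1%, 21.4% and 44.5% of untreated parental libraries, the reverse order of let-7 there, and 21.6%, 15.99% and 16.4% of treated ones. Its fitted change was -1.43 on the log2 scale (SE 0.56, adjusted p = 0.139, edgeR). miR-99b-5p was counted 73, 1 and 25 times in untreated parental libraries. The other partners had at most 8 counts in a library.

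Across the 12 libraries, 33 other miRNAs with at least 100 counts were ranked by how closely their share followed the let-7 sum. The closest were miR-146a-5p (Spearman rho 0.87), an inhibitor of NF-kB signalling, miR-27b-3p (0.73) and miR-24-3p (0.49). The most opposed were miR-4488 (-0.74), miR-7704 (-0.63) and miR-99b-5p (-0.55). These values describe shares of 1 total per library, which move against each other by construction. Without untreated parental replicate 1 the closest were miR-146a-5p (0.85), miR-27b-3p (0.69) and miR-106b-3p (0.60), with miR-24-3p at 0.35. The most opposed were then miR-4488 (-0.67), miR-423-5p (-0.65) and miR-221-3p (-0.60), with miR-99b-5p at -0.42. miR-146a-5p stood at 0.94 over the 6 parental and 1 over the 6 CSC-like libraries, 2 of which were counted as 1 sample above. miR-99b-5p stood at -1 over the parental and at 0.26 over the CSC-like libraries.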

How the data were processed

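Per the labels' protocols, exosomal RNA was extracted with ExoRNeasy and libraries were made with NEB-Next multiplex small RNA reagents, and cutadapt and FastQC are named in the submitters' processing notes. Sources used here name no aligner, genome build or miRNA release. The deposited tables hold whole read counts per mature miRNA and library, trimmed and grouped on mature sequence and not transformed, per the file headers. They also hold the authors' signed fold change as a score, in which a fall is negative, and an unadjusted p-value from Baggerley's test, per the file headers. A single emptied line of each was not used here.

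The members, lists and tests were chosen with earlier results of these data known. Shares are counts over a library's listed total, with exact 95% intervals. Replicates were compared in pairs by chi-square, over miRNAs that reached 10 counts in both libraries together. The count model was edgeR 4.0.16 in R 4.3.3, with limma 3.58.1, checked on simulated counts with large changes and a fixed dispersion. That check does not show how the model fares with smaller changes or a wider spread. The fits used filterByExpr (minimum count 10, minimum total 15), TMM scaling and the quasi-likelihood test. Their p-values were adjusted by Benjamini-Hochberg over all miRNAs tested, with a threshold of 0.05. Cross-table fits used the 98 miRNAs listed in both tables. SEs come from the fold change and the F statistic. Alternatives were DESeq2 1.42.0, other scalings and filters, unmerged libraries, a replicate block, a model of all groups and leaving out each library. Named were all members, their cluster partners and the 3 miRNAs at each end of the likeness ranking. Sequences and coordinates are from RefSeq (GRCh38.p14), host genes from GENCODE 29.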

Additional observations from a re-analysis of the deposited data

Results flagged for a closer look

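Among the members' shares and the 10 pairs of abundant members, 1 measure had groups that did not overlap in opposite directions without and with cisplatin when CSC-like was set against parental exosomes. It was let-7f-5p as a percentage of let-7a-5p plus let-7f-5p counts. Every untreated CSC-like library was above every untreated parental one (mean difference 25.3 percentage points), and every treated CSC-like library was under every treated parental one (mean difference -21.0). Of all pairs of tested miRNAs, 14.3% did not overlap between untreated and 20.1% between treated populations, each in either direction. How many of all pairs did so in both contrasts with opposite directions was not counted, so this result has no matching share beside it. Fitted fold changes also had opposite signs in both contrasts for let-7a-5p (-1.39 and 0.93), let-7b-5p (-0.33 and 0.87) and let-7f-5p (0.33 and -0.96), where no value passed the edgeR test. The difference between these contrasts was not tested, and the pair was singled out from 10 after its values were seen. Without cisplatin-treated CSC-like replicate 1, whose value rests on 8 and 5 counts, the treated difference was -14.2. The abundant members were measured in 3 libraries a group at most, so no single library was screened as far from its group.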

How the results depend on the processing

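The 25 fitted fold changes of members were recomputed 375 times in all, of which 313 kept direction and side of the threshold, 61 changed sign and 1, let-7a-5p without untreated parental replicate 1, came to pass. Counts of called members were 0 in every alternative except that one, where it was 1 (range 0 to 1 on leaving out libraries). Over all tested miRNAs, the calls for cisplatin in parental cells numbered 2, against 0 with no low-count filter, 7 in 1 model of all 4 groups, 1 without untreated parental replicate 1 and 8 without replicate 2. In CSC-like cells 1 was called, against 0 with the replicate block, which was fitted on unmerged libraries throughout, and 0 without untreated CSC-like replicate 1 or 3. For the difference in response 1 was called, against 0 with at least 15 counts or the block, 2 with library totals or unmerged libraries, and 0 to 2 on leaving out libraries. Between untreated populations 1 was called, against 5 in the model of all 4 groups and 0 to 3 on leaving out libraries.

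After cisplatin in parental cells, the log2 fold changes of let-7g-5p and let-7i-5p turned to 0.18 and 0.23 with library totals only, 0.056 and 0.17 with no low-count filter, 0.18 and 0.29 with at least 15 counts in total, 0.64 and 1.07 with a replicate block and 0.13 for both in 1 model of all 4 groups. In CSC-like cells, let-7a-5p and let-7i-5p turned to 0.018 and 0.044 with RLE size factors, 0.018 and 0.050 with DESeq2, 0.064 and 0.27 with every library as its own sample and 0.11 and 0.27 with the replicate block, which also turned let-7b-5p to 0.060. Between untreated populations, let-7g-5p and let-7i-5p turned to -0.38 and -0.35 with RLE and again with DESeq2, -0.20 and -0.17 with at least 15 counts and -0.057 and -0.072 in the model of all 4 groups, and let-7b-5p to 0.042 with library totals. The cause was not tested. Scaling also moved the median of all tested miRNAs, from -0.15 to 0.04 with RLE for cisplatin in CSC-like cells, and with library totals from 0.36 to -0.28 for the difference in response, from -0.32 to 0.14 between untreated and from 0.08 to -0.05 between treated populations.

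Leaving out single libraries gave these ranges for the log2 fold changes whose sign turned. For cisplatin in parental cells they were -0.31 to 0.78 (let-7f-5p), -1.02 to 1.70 (let-7g-5p) and -0.96 to 1.61 (let-7i-5p). In CSC-like cells they were -0.25 to 0.17 (let-7a-5p), -0.74 to 0.20 (let-7b-5p) and -0.21 to 0.57 (let-7i-5p). For the difference in response they were -2.52 to 0.12 (let-7g-5p) and -1.82 to 0.53 (let-7i-5p). Between untreated populations they were -0.39 to 1.14 (let-7f-5p), -0.98 to 0.29 (let-7b-5p), -1.36 to 2.02 (let-7g-5p) and -1.16 to 1.85 (let-7i-5p), and between treated ones -0.52 to 0.25 (let-7i-5p). Among fold changes that kept their sign, moves of over 1.5 times were seen for let-7b-5p after cisplatin in parental cells (-2.22 to -1.08), for let-7f-5p (-0.97 to -0.36) and let-7g-5p (-0.83 to -0.15) in CSC-like cells, and for let-7a-5p (0.90 to 2.70), let-7f-5p (-2.35 to -0.87) and let-7b-5p (0.31 to 1.52) in the difference in response. Between populations the same held for let-7a-5p untreated (-2.09 to -0.26) and for let-7b-5p (0.56 to 1.03) and let-7g-5p (-1.34 to -0.40) treated. Without treated CSC-like replicate 1 that group is 1 sample, assumed to vary like the other group.

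The summed let-7 share of treated CSC-like minus treated parental libraries was -4.75 percentage points, and -9.54 with miR-21-5p and miR-100-5p left out of the total. Differences in members' shares of the let-7 sum moved by less than 1 SD in 146 of 150 alternatives, but the SDs are wide and 8 of the 20 differences changed sign in at least 1 alternative, for example let-7i-5p after cisplatin in parental cells (5.85 percentage points, range -3.59 to 11.8). let-7f-5p as percent of its pair with let-7a-5p, an alternative added after seeing the data, ranged from -22.7 to -14.2 for treated CSC-like minus treated parental on leaving out libraries. Replicate numbers did not pair the libraries throughout. Same-numbered untreated and treated libraries had deviations correlated at 0.41, 0.44 and -0.01 in the parental and -0.69, -0.68 and 0.53 in the CSC-like table. Not every library was closest to its own number, but the parental libraries numbered 1 were closest to each other. Whether some libraries were handled together was not tested. The replicate block called 0 members in all 5 comparisons. Depth limits the rare members, and 38 let-7 counts or fewer stood behind untreated parental replicate 1 and treated CSC-like replicate 1.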
